A study of Rattus norvegicus with 10 samples.

Results

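The 10 genes described here act in glucose breakdown and in the response to low oxygen, and were followed through 10 mammary tumours of rats. They are the glycolytic enzymes Hk1, Hk2, Pfkp, Aldoa, Gapdh, Pgk1, Eno1 and Ldha, the oxygen-regulated transcription factor Hif1a, and the vessel growth factor Vegfa. The genes were chosen by symbol. Of the 10 genes, 9 were matched to the array through RefSeq, by 14 of its 41012 probes, and 8 of them were measured well enough to be tested among 16779 genes in all. Hk2 was matched but dim, and Pfkp was not analysed here. Of the 16779, 8270 carried a gene symbol. The others were counted by transcript identifier, and shares of all genes given below include them.

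The tumours were induced in female Sprague-Dawley rats with a single dose of 50 mg/kg N-methyl-N-nitrosourea, an alkylating carcinogen, at the age of 3 weeks, and were taken from animals 110 days old. Of the tumours, 5 (WD1 to WD5) came from daughters of dams on a Western-style diet, high in fat and low in fibre and trace elements, and 5 (CD1 to CD5) from daughters of dams on the control diet. The dams ate these diets on gestational days 12 to 20 and postnatal days 1 to 21. All daughters ate control diet once weaned and all received the carcinogen, so the labels set the groups apart by the diet of the dam alone. RNA was extracted from tumours of tubular/papillary type and measured with 1 array per tumour. The labels do not say which tumours shared a dam or litter, so the p-values below measure the spread between tumours only, and the 5 tumours a group limit the precision.

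Glycolysis turns glucose into pyruvate in the cytosol. Hexokinases (Hk1, Hk2) trap glucose in the cell as a phosphate, phosphofructokinase (Pfkp is one of its isozymes) commits it to the pathway, aldolase (Aldoa) splits the sugar, and Gapdh, Pgk1 and Eno1 carry out later steps that lead to pyruvate. Lactate dehydrogenase A (Ldha) converts pyruvate to lactate, a route that tumours often use even where oxygen is present. When oxygen is scarce, the HIF-1 alpha protein (Hif1a) escapes degradation, pairs with Arnt and binds genes for glycolytic enzymes, glucose transport and Vegfa. This control acts chiefly on the HIF-1 alpha protein, which arrays do not measure.

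All levels below are log2 spot intensities relative to the 75th percentile of the same array, so a level of 0 is that percentile and differences between groups are differences of log2 values. Levels of different probes are not comparable, since each probe has its own affinity. The 75th percentile itself lay between 72.8 and 170 intensity units on WD arrays and between 85.0 and 226 on CD arrays, and 16686 to 21907 probes per array were well above background. No probe spot was saturated. All 7 luminal epithelial markers were above background on all 10 arrays. Of 7 skeletal muscle markers, 0 were above it on all 10, and 3 (Ckm, Acta1 and Myh1) on no array. The muscle genes Myh2, Mb and Actn3 were above it in 5, 4 and 2 WD tumours and in 4, 5 and 4 CD tumours. The arrays lay on 3 slides (2 WD and 1 CD tumours, 2 and 2, and 1 and 2), so within-slide differences could be formed on each.

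The upstream sequence of 4 enzymes whose levels moved together across tumours (below) is shown, since HIF-1 is known to bind a short core that reads ACGTG or GCGTG on either strand. The sequences are the 250 bases before an annotated start in RefSeq (GRCr8 assembly), read 5′ to 3′ on the strand of the gene, with every match to ACGTG or GCGTG, or to the reverse complements (CACGT for the one and CACGC for the other), in capitals. They are Ldha at chr1:106507842-106508091 (plus strand), Gapdh at chr4:159652468-159652717 (minus strand), Eno1 at chr5:166003111-166003360 (plus strand, the downstream of 2 starts) and Aldoa at chr1:190836778-190837027 (minus strand, the only one of 3 starts with a match).
Ldha: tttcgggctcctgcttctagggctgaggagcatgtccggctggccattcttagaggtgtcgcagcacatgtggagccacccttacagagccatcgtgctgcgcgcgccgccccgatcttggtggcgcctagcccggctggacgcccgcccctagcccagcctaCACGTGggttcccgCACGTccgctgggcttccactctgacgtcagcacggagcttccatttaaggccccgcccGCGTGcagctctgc
Gapdh: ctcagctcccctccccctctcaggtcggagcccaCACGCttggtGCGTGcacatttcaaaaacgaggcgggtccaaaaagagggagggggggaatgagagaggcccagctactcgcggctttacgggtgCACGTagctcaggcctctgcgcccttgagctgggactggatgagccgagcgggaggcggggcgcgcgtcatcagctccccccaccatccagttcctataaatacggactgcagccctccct
Eno1: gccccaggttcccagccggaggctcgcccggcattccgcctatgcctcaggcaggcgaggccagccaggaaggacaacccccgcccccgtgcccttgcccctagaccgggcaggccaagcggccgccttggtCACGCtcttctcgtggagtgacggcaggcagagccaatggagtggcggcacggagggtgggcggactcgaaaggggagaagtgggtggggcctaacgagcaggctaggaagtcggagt
Aldoa: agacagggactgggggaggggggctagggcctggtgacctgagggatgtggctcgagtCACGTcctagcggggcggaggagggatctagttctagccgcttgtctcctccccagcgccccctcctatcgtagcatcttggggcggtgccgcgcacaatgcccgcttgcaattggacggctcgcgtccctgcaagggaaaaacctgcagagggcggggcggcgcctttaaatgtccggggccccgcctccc
In Ldha, ACGTG matches begin 87, 86 and 73 bases before the start and GCGTG lies 14 bases before it; the matches at 87 and 86 overlap on opposite strands as CACGTG. Gapdh has ACGTG at 121 bases and GCGTG at 216 and 206 bases. The Eno1 window has GCGTG at 118 bases and the Aldoa window ACGTG at 192 bases. Such matches are common: 16.6% of 33469 annotated promoters of the same length hold ACGTG, 25.9% hold GCGTG and 36.7% hold either on either strand. A match describes the letters only and does not show a bound site. The windows shown were chosen because they hold a match. Among the other windows of members, Hif1a has ACGTG at 229, 228 and 164 bases, 1 of 2 Hk1 starts has ACGTG at 245 bases, Pfkp has GCGTG at 43 bases and the upstream Eno1 start GCGTG at 13 bases. The window of Hk2, both windows of Vegfa and those of the other 2 Aldoa starts hold no match. No Pgk1 promoter is shown.

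The 8 tested genes gave no difference between the diets that passed the test across all genes. None had a Benjamini-Hochberg adjusted p under 0.05 in limma, and neither did any gene of the array (0% of 16779; lowest adjusted p 0.136). Before adjustment, 2 of the 8 (Pgk1 and Gapdh) had p under 0.05, against 15.5% of all genes; both were lower in WD tumours, a direction in which 7.72% of all genes passed. All 6 tested enzymes, and neither Hif1a nor Vegfa, had a lower mean in WD tumours. That makes 6 of 8 with a lower mean, against 48.6% of all genes. That count was 6 under the alternatives tried, except that it was 8 with array brightness as a covariate and without CD2. The count of 2 was less stable: it was 4 without CD5 and 0 with normexp background correction. In no member were the 5 WD and 5 CD tumours fully separated, as they were for 3.65% of genes. The median difference of the 8 was -0.32 (log2, WD minus CD), against 0.01 over all genes. In bulk tumour RNA, fewer cells of a type and less RNA per cell cannot be told apart.

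**Figure D1:**
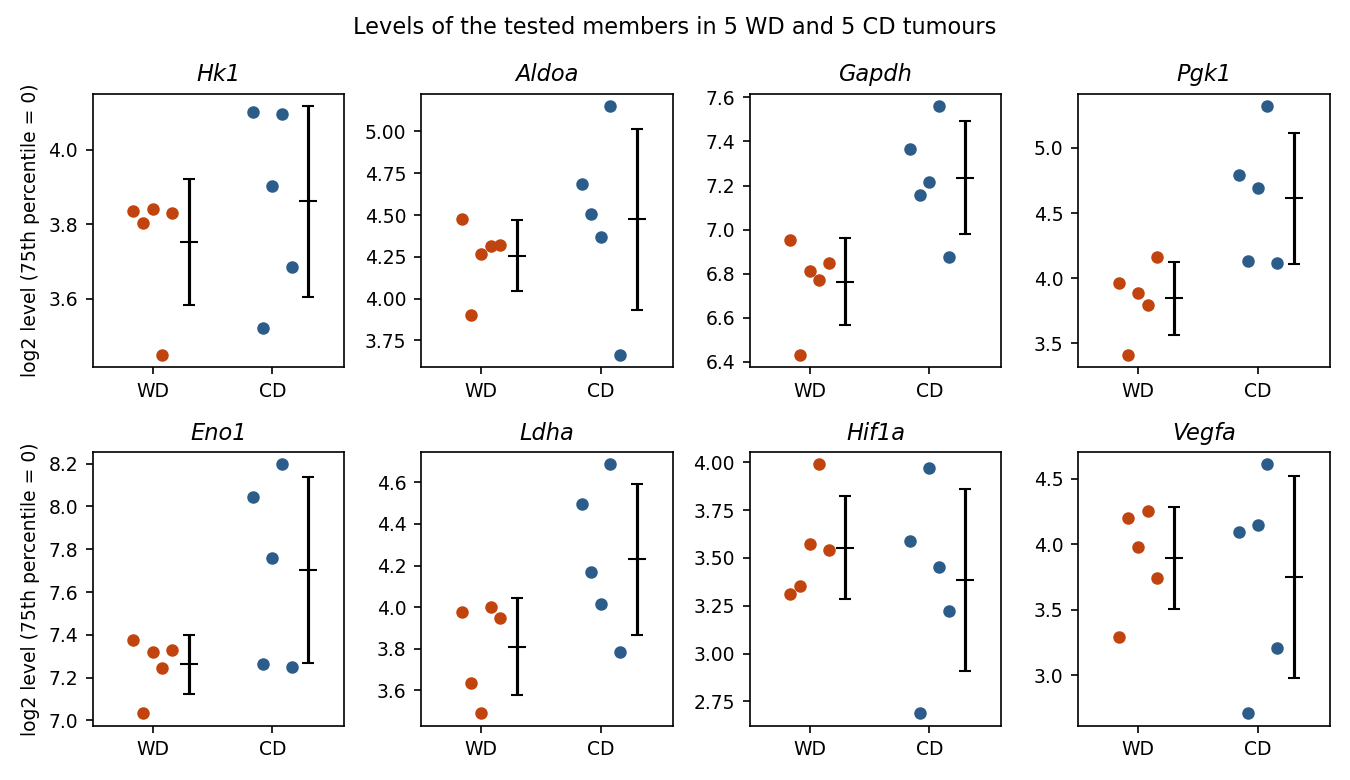
Level of each tested gene (log2 spot intensity, 75th percentile of the array = 0) in 5 WD tumours (orange) and 5 CD tumours (blue); bars show mean ± SD and each panel has its own axis. Pgk1 and Gapdh lie lower in most WD tumours, and the groups overlap in every panel.

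At the early steps no tested member had an unadjusted p under 0.05. Hk1, the hexokinase of most adult tissues, read 3.84, 3.80, 3.84, 3.45 and 3.83 in WD1 to WD5, against 4.10, 3.52, 3.90, 4.10 and 3.68 in CD1 to CD5. In 4 WD tumours the level was almost equal, WD4 was lower, and the CD values lay on both sides of them. The difference was -0.11 (95% interval -0.46 to 0.24; limma adjusted p = 0.765). Within slides it was 0.30, -0.15 and -0.27, so its sign was not the same on all 3. The other Hk1 probe, above background on all 10 arrays, gave -0.42 (limma over probes, unadjusted p = 0.258), and the mean of both probes gave -0.26 (limma, unadjusted p = 0.260). By the first probe Hk1 had, over all 10 tumours, an SD of 0.21, lower than that of most genes (percentile 12.6 among the SDs of all tested genes).

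Hk2, the hexokinase of muscle and of many tumours and a known HIF-1 target, was near the detection limit. Its probe was well above background in WD4, WD5 and CD4 and in no other tumour. Its values were -2.81, -2.96, -3.09, -1.63 and -2.19 in WD tumours and -3.23, -2.91, -2.41, -2.52 and -3.13 in CD tumours. The highest value was that of WD4. In the 7 tumours not well above background the value gives only an upper bound of the level, so no fold is given.

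Aldoa, the muscle-type aldolase that most proliferating cells also use, read 4.48, 3.90, 4.27, 4.31 and 4.32 in WD tumours, against 4.69, 4.51, 4.37, 5.15 and 3.66 in CD tumours. The CD tumours held both the highest (CD4) and the lowest (CD5) of the 10 values. The difference was -0.22 (95% interval -0.76 to 0.32; limma adjusted p = 0.689), and it was -0.32, 0.27 and -0.60 within the slides.

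Both members with an unadjusted p under 0.05 act at the later steps. Pgk1, which makes ATP in the step after Gapdh, read 3.96, 3.41, 3.88, 3.80 and 4.17 in WD tumours, against 4.79, 4.14, 4.69, 5.32 and 4.11 in CD tumours. All 5 WD tumours lay below the CD mean, yet CD2 and CD5 lay just under WD5, so the groups overlapped. Mean levels were 3.84 ± 0.28 in WD and 4.61 ± 0.50 in CD tumours (SD, n = 5 each; limma, unadjusted p = 0.0088, adjusted p = 0.205). The signal was 1.70-fold lower in WD tumours (log2 difference -0.77, 95% interval -1.30 to -0.23). An exact two-sided permutation of the diets over the 10 tumours gave p = 0.024, where 0.0079 is the smallest it can give. The difference had the same sign on all 3 slides (-0.45, -0.56 and -0.89) and was -0.62 with slide as a block.

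Gapdh, which oxidises glyceraldehyde phosphate and is widely used as a reference gene in expression work, was 1.39-fold lower by the brighter of its 2 probes. It read 6.95, 6.43, 6.81, 6.77 and 6.85 in WD tumours, against 7.37, 7.16, 7.22, 7.56 and 6.87 in CD tumours. Only CD5 lay below a WD tumour (WD1). The difference was -0.47 (95% interval -0.83 to -0.11; limma, unadjusted p = 0.014, adjusted p = 0.228; exact permutation p = 0.016), with -0.46, -0.26 and -0.61 within slides and -0.42 with slide as a block. Gapdh has many processed copies in the rat genome, and signal from them cannot be separated on this array. The other Gapdh probe gave a difference of -0.19 (limma over probes, unadjusted p = 0.254). Its values were 6.37, 5.87, 6.03, 5.97 and 6.53 in WD tumours and 6.28, 6.50, 6.27, 6.33 and 6.34 in CD tumours. WD5 was the highest of all 10 by this probe, where by the brighter probe it lay below all 5 CD tumours.

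Eno1, the enolase of most tissues, read 7.38, 7.03, 7.32, 7.25 and 7.33 in WD tumours, against 8.04, 7.27, 7.76, 8.20 and 7.25 in CD tumours. The WD tumours lay close together, while 3 CD tumours stood above all of them and CD2 and CD5 among them. The difference was -0.44 (95% interval -0.89 to 0.01; limma, unadjusted p = 0.053, adjusted p = 0.328). On slide 1 it was -0.06 and on slide 3 it was -0.79. A dimmer Eno1 probe gave -0.32 (unadjusted p = 0.255).

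Ldha read 3.98, 3.64, 3.49, 4.00 and 3.95 in WD tumours, against 4.50, 4.17, 4.02, 4.69 and 3.78 in CD tumours. Of the 5 CD tumours, 4 were above all WD tumours, and CD5 was below 3 of them. The difference was -0.42 (95% interval -0.85 to 0.01; limma, unadjusted p = 0.055, adjusted p = 0.333). It was -0.36, -0.15 and -0.65 within slides. Ldhb, the other common subunit of the same enzyme, which favours the reaction from lactate to pyruvate, was itself lower in all 5 WD tumours than in any CD tumour: 2.29, 2.87, 2.51, 2.01 and 2.79 against 3.33, 3.57, 2.93, 3.13 and 3.77. Its difference was -0.85 (95% interval -1.32 to -0.38; limma, unadjusted p = 0.0020, adjusted p = 0.181). The Ldha level minus the Ldhb level within a tumour was 1.32 ± 0.51 in WD and 0.89 ± 0.59 in CD tumours (SD, n = 5 each). The difference of 0.43 did not pass an exact permutation test (p = 0.246; 0.492 adjusted over the 2 isozyme pairs that could be formed). For Aldoa minus Aldoc, the brain-type aldolase, the difference was 0.05 (exact permutation p = 0.937).

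Hif1a and Vegfa showed no lower mean. Hif1a read 3.31, 3.35, 3.57, 3.99 and 3.54 in WD tumours, against 3.59, 2.69, 3.97, 3.45 and 3.22 in CD tumours. CD2 was the lowest by far, and the other values of the 2 diets were mixed. The difference was 0.17 (95% interval -0.34 to 0.68; limma adjusted p = 0.751), and without CD2 it was -0.0049. A dimmer probe gave 0.08, and the 2 Hif1a probes had r = 0.89 with each other across tumours.

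Vegfa, the ligand that drives growth of new vessels, read 3.29, 4.20, 3.98, 4.25 and 3.74 in WD tumours, against 4.09, 2.71, 4.14, 4.61 and 3.21 in CD tumours. The CD group held the highest (CD4) and the lowest (CD2) value, and its SD was 0.77, against 0.39 in WD tumours. The difference was 0.14 (95% interval -0.61 to 0.90; limma adjusted p = 0.870). It was 1.04 on slide 1, which holds CD2, and -0.61 on slide 3, which holds CD4. Without CD2 the difference was -0.12. With an SD of 0.58 over all tumours by the brighter probe, Vegfa was among the more variable genes (percentile 80.0), as was Pgk1 (percentile 78.0). The dimmer Vegfa probe, above background on all 10 arrays, gave a difference of 0.18 (limma over probes, unadjusted p = 0.384). By that probe the WD group held the highest (WD2, 2.14) and the lowest (WD3, 1.13) value. Its SD was 0.36 in WD and 0.28 in CD tumours, so the wider CD spread was seen by the brighter probe only.

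The other genes of the pathway were read from lists by name. Besides genes fixed by name, up to 2 genes of smallest p in each list were named. Their small p-values follow in part from that choice. Of 20 other glycolytic enzymes, 12 were tested, of which 4 had a higher and 8 a lower mean in WD tumours, with a median of -0.16. Lower in WD at an unadjusted p under 0.05 were Tpi1, which interconverts the 2 products of aldolase (-0.43), Pkm, the pyruvate kinase of most tissues (-0.61, 1.52-fold lower), and Ldhb. Tpi1 read 2.19, 2.05, 2.05, 2.38 and 2.46 in WD tumours, against 2.76, 2.63, 2.56, 2.91 and 2.45 in CD tumours, with only CD5 inside the WD range. With normexp background correction Tpi1 differed by -0.30, Pkm by -0.55 and Ldhb by -0.70 (limma, unadjusted p = 0.282, 0.184 and 0.024). Hk3, the hexokinase of white blood cells, was dim, with its probe above background in 5 of 5 WD and 4 of 5 CD tumours and mean levels of -0.88 in WD and -2.05 in CD tumours (difference 1.17, 95% interval 0.17 to 2.17, unadjusted p = 0.025). All 6 tested macrophage markers also had a higher mean in WD tumours, 1 of them (Mrc1) with an unadjusted p under 0.05. The ranges of the macrophage level overlapped, with 0.66 to 2.90 in WD and 1.20 to 2.12 in CD tumours, and its part in the Hk3 difference was not tested. Gpi, the isomerase that follows hexokinase, was nearly level (-0.01), with an SD over tumours at percentile 1.08 of all genes, and Pgam1, between Pgk1 and Eno1, differed by -0.12. Neither passed (unadjusted p = 0.936 and 0.621). The differences of Pfkl (0.31) and Aldoc (-0.27) did not pass either.

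**Figure D2:**
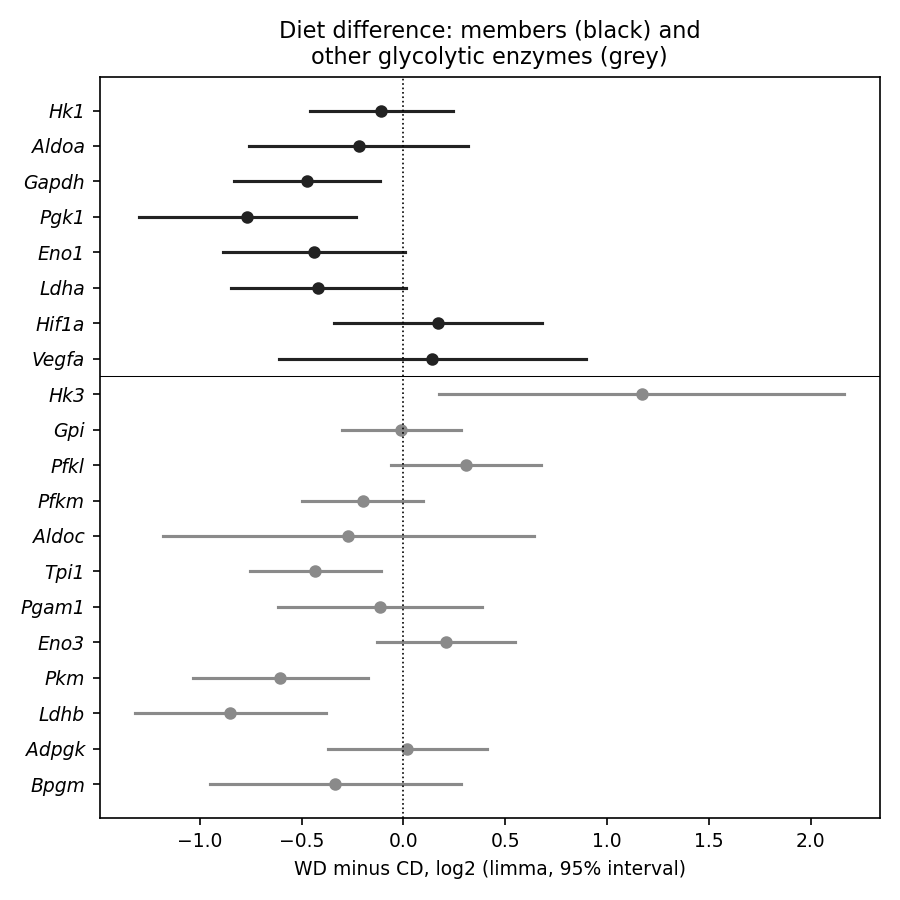
Difference between diets (WD minus CD, log2) with its 95% interval from limma for the 8 tested members in pathway order (black) and for the 12 tested other glycolytic enzymes (grey). Intervals of Gapdh, Pgk1, Tpi1, Pkm and Ldhb lie below 0 and that of Hk3 above it, before any adjustment for the 16779 genes tested.

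At the entry and exit of the pathway, 5 of 12 transport genes were tested. Slc2a1, the widespread glucose transporter GLUT1, averaged 4.26 ± 0.55 in WD and 3.74 ± 0.47 in CD tumours (SD, n = 5 each), a difference of 0.52 in the opposite direction to the enzymes (limma, unadjusted p = 0.103), and with slide as a block 0.66 (unadjusted p = 0.016). It was higher in 4 of 5 WD tumours than the CD mean and positive on all 3 slides. With array brightness as a covariate the Slc2a1 difference was 0.24 (limma, unadjusted p = 0.525). Slc16a3, a lactate exporter, differed by 0.23 (unadjusted p = 0.608). Slc2a5, the fructose transporter, differed by 0.52 (unadjusted p = 0.063), but by 0.18 with normexp background correction. Slc2a8, an intracellular glucose transporter, was dim: its probe was above background in 1 of 5 WD and 4 of 5 CD tumours, so it was tested only because of its signal in CD tumours, and no difference is read from it. Its values were -2.65, -4.08, -3.59, -3.47 and -2.97 in WD tumours, against -2.65, -1.55, -2.50, -1.65 and -2.35 in CD tumours.

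Beyond pyruvate, all 6 tested genes of the pyruvate dehydrogenase complex and its carrier had a lower mean in WD tumours (median -0.17). Pdhb, a subunit of its first enzyme, differed by -0.59 and Dlat, its core subunit, by -0.53, both with full separation of the 5 WD from the 5 CD tumours (limma, unadjusted p = 0.0033 and 0.0041, both with an adjusted p of 0.181). These 2 were named because their p was the smallest in the list, and 3.65% of all genes were fully separated. With normexp background correction Pdhb differed by -0.39 and Dlat by -0.35 (limma, unadjusted p = 0.086 and 0.055). Of 8 tested regulators of glycolysis, 2 were higher and 6 lower in mean. Pdk3, a kinase that switches the complex off, was also lower without overlap, at -0.16, -0.57, -0.06, -0.75 and -0.13 in WD tumours, against 0.55, 0.50, 0.22, 1.00 and 0.52 in CD tumours (difference -0.89, unadjusted p = 0.00066). Txnip, a brake on glucose uptake that glucose induces, differed by -0.83 (unadjusted p = 0.028) but by 0.12 on slide 2, and had an unadjusted p of 0.061 with slide as a block. With normexp background correction Pdk3 differed by -0.57 and Txnip by -0.73 (limma, unadjusted p = 0.0069 and 0.111). Pdk1, the kinase best known as a HIF-1 target, differed by -0.26 (unadjusted p = 0.244).

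Genes that branch from glycolysis had mostly lower means too. In the pentose phosphate and glycogen list 10 of 12 tested genes were lower in mean (median -0.15), with Pygb, a glycogen phosphorylase, at -0.66 and Rpia, an isomerase of ribose phosphate, at -0.34 (unadjusted p = 0.0031 and 0.029). With normexp background correction Pygb differed by -0.46 and Rpia by -0.19 (limma, unadjusted p = 0.112 and 0.411). The Pygb ranges met but did not overlap, at 0.96 to 1.56 in WD and 1.56 to 2.33 in CD tumours. Of the gluconeogenic genes 4 of 7 were tested, 2 higher and 2 lower in mean. Fbp1, which reverses the phosphofructokinase step, spread widely, from -1.48 to 1.81 in WD and from -2.08 to 0.06 in CD tumours (difference 1.15, unadjusted p = 0.114).

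Genes of oxygen sensing and known hypoxia targets had means in both directions. Of 16 genes that sense oxygen or work with HIF, 9 were tested, with 4 higher and 5 lower means and a median of -0.03; none had an unadjusted p under 0.05. Epas1, which encodes HIF-2 alpha, differed by 0.54, Vhl, which marks HIF for degradation, by -0.26, and Egln2, one of the oxygen-sensing hydroxylases, by -0.47 (unadjusted p = 0.143, 0.288 and 0.134). Of 23 classical hypoxia targets outside the members, 20 were tested; 13 had a higher and 7 a lower mean, with a median of 0.15. The hypoxia markers Car9 (-0.18) and Bnip3 (0.15) differed by less than their SD within a diet. Egln3, the hydroxylase that HIF itself induces, had a difference of 0.71, and CD tumours spanned -0.33 to 2.87, against 1.36 to 2.52 in WD tumours (unadjusted p = 0.196). Ero1a, an oxidase of the endoplasmic reticulum, had a difference of 0.46 (unadjusted p = 0.061), and with slide as a block 0.52 (unadjusted p = 0.028). With array brightness as a covariate the Ero1a difference was 0.23 (limma, unadjusted p = 0.409). Ddit4, an inhibitor of mTOR signalling, had a lower mean in WD tumours (-0.64, unadjusted p = 0.045). That p was just under 0.05, and Ddit4 differed by -0.32 with normexp background correction, -0.30 in the series matrix and -0.39 with array brightness as a covariate (limma, unadjusted p = 0.108, 0.0993 and 0.298). Egln3, Pdk1 and Slc2a1 stand in this list and in another.

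Around Vegfa, 8 of 13 VEGF and angiopoietin genes were tested, 4 higher and 4 lower in mean, and none had an unadjusted p under 0.05 without a block. The receptors Kdr and Flt1 differed by 0.30 and -0.21 (unadjusted p = 0.190 and 0.523). Pgf, a relative of Vegfa that binds Flt1, differed by -0.54, and Angpt1, a ligand of the vessel receptor Tek, by 0.55 (unadjusted p = 0.074 and 0.068). With slide as a block Kdr differed by 0.36 and Pgf by -0.46 (limma, unadjusted p = 0.029 and 0.018). With array brightness as a covariate Kdr differed by 0.04 and Pgf by -0.22 (limma, unadjusted p = 0.882 and 0.506). Angpt1 differed by 0.16 with normexp background correction and by 0.12 in the series matrix. Of 5 tested endothelial markers, 4 had a higher mean in WD tumours.

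Since Gapdh often serves as a reference, the other common reference genes were read in the same way. All 12 were tested: 3 had a higher and 9 a lower mean in WD tumours, with a median of -0.15. Ppia differed by -0.51 and Tfrc by -0.38 (unadjusted p = 0.018 and 0.029). Ppia differed by -0.19 with array brightness as a covariate (limma, unadjusted p = 0.308), and Tfrc by -0.29 as the mean of its probes (unadjusted p = 0.0995). Actb, B2m and Tbp, in contrast, differed by -0.07, 0.04 and 0.15.

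The members also varied together across tumours. Among the 28 pairs of the 8 genes over 10 tumours, 12 had a Pearson correlation with an adjusted permutation p under 0.05, and 10 by Spearman's rho. All 10 pairs among Aldoa, Gapdh, Pgk1, Eno1 and Ldha were among the 12, with r from 0.75 to 0.95 (permutation p adjusted over 28 pairs, 0.0011 to 0.033). CD4 was the highest of the 10 tumours for each of these 5 enzymes, and WD2 was the lowest for Gapdh, Pgk1 and Eno1. The pairs share a tumour, an array and its scaling. The share of all gene pairs on the array that would pass was not computed, so the count of 12 has no background beside it. After each diet mean was taken out, r for these 10 pairs still lay between 0.73 and 0.94. In a further check the 2 tumours farthest from the median of the first gene of each pair were left out. Then r ranged from 0.35 (Pgk1 with Aldoa) and 0.36 (Ldha with Eno1) to 0.91. For Pgk1 with Aldoa the value depended on which gene set the tumours left out, since r was 0.77 without the 2 farthest for Aldoa. For Ldha with Eno1 r was 0.36 by either gene, so that relation rests on the tumours left out.

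**Figure D3:**
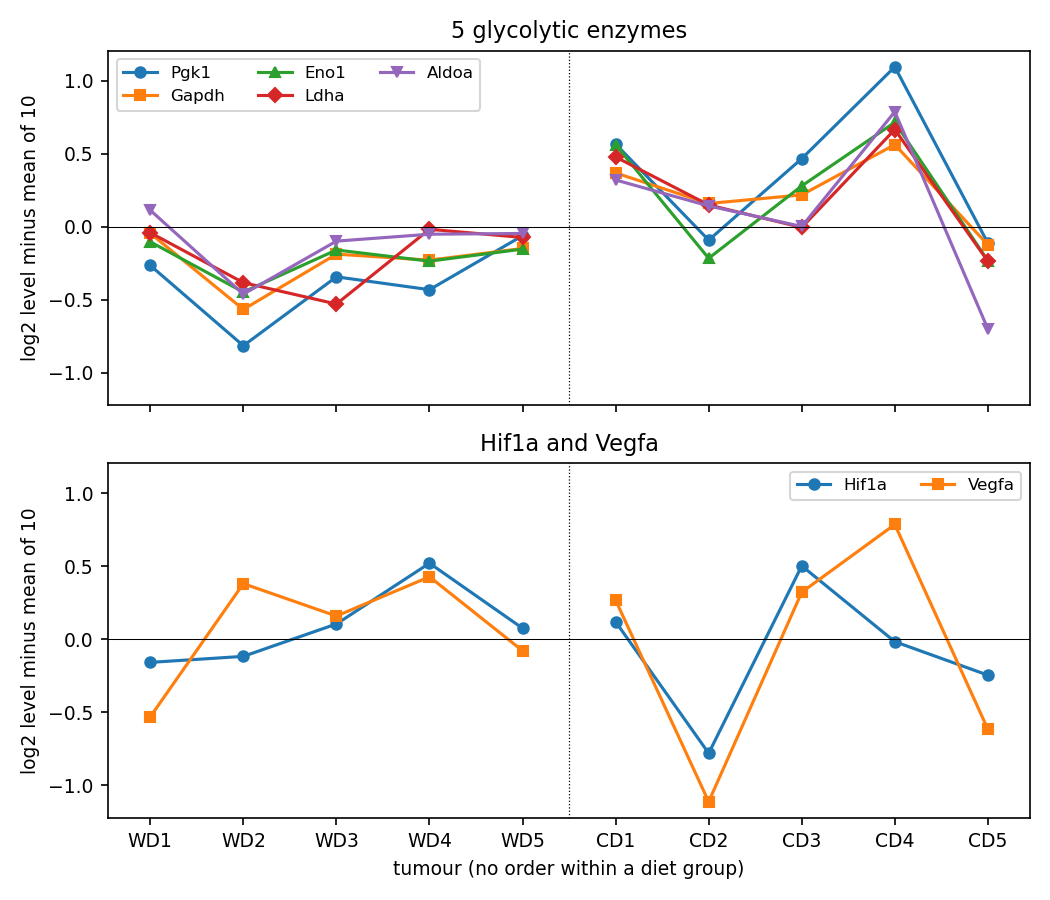
Level of each gene in each tumour relative to its own mean over the 10 tumours (log2), for 5 enzymes above and for Hif1a and Vegfa below, with WD tumours left of the dotted line and CD tumours right of it. The 5 enzymes peak together in CD4, whereas Hif1a and Vegfa share a low in CD2.

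Among the enzymes, by the probe used for each gene, Pgk1, Gapdh and Eno1 had the highest correlations with each other. Pgk1 with Eno1 had r = 0.95 (rho 0.87), Pgk1 with Gapdh r = 0.95 (rho 0.92) and Gapdh with Eno1 r = 0.91 (rho 0.87), each with an adjusted permutation p of 0.0011 for r and 0.014 for rho. Without WD2 and CD4, r was 0.91, 0.89 and 0.83. These 3 pairs kept an adjusted p under 0.05 in all 14 alternatives tried. The others did not: without CD1 only these 3 pairs passed, and without CD4 only 4 did. With normexp background correction, in contrast, all 28 pairs passed. The dimmer Gapdh probe had r = 0.48 with Pgk1 and 0.28 with the brighter Eno1 probe. The dimmer Eno1 probe had r = 0.66 with Pgk1 and 0.67 with the brighter Gapdh probe. Between the 2 dimmer probes r was 0.74. None of these values had an adjusted permutation p under 0.05 over 78 probe pairs. Hk1 had r = 0.77 with Eno1 (rho 0.87, adjusted permutation p = 0.031) and no other pair past the threshold with these 5 enzymes. Without WD4 and CD2, the 2 farthest for Hk1, r was 0.91 with Eno1, 0.90 with Aldoa and 0.81 with Gapdh. Over all 10 tumours these were 0.77, 0.50 and 0.53. Without the 2 tumours farthest for the other gene of the pair, they were 0.41, 0.21 and 0.53. Those 3 values thus depend on the tumours left out, and not in 1 direction. Hk1 with Eno1 passed in 9 of 14 alternatives. Over the 78 probe pairs its adjusted permutation p was 0.070 for r and 0.025 for rho. The dimmer Hk1 probe had r = 0.38 with the brighter Eno1 probe and 0.95 with the dimmer one.

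By the probe used for each gene, Hif1a and Vegfa correlated with each other, and neither passed the threshold with an enzyme. The difference between those correlations was not tested. Between Hif1a and Vegfa r was 0.75 (rho 0.65, permutation p adjusted over 28 pairs, 0.031 for r and 0.099 for rho), and it was 0.47 without WD4 and CD2. Without CD2 alone r was 0.51 (adjusted permutation p = 0.250), and without WD4 alone it was 0.74 (adjusted permutation p = 0.043). The relation thus depends on CD2, the lowest tumour for both genes. It passed in 8 of 14 alternatives. With the mean of probes r was 0.59 (adjusted permutation p = 0.141). The dimmer Vegfa probe had r = 0.30 with the brighter and 0.08 with the dimmer Hif1a probe. The brighter Vegfa probe had r = 0.61 with the dimmer Hif1a probe. Permutation p adjusted over 78 probe pairs was 0.631, 0.904 and 0.232 for these. Of the 10 pairs of Hif1a or Vegfa with the 5 enzymes, none passed, with r from -0.03 to 0.48. The pair with the highest of these values was Vegfa with Eno1 (rho 0.16), and within diets it had r = 0.70.

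**Figure D4:**
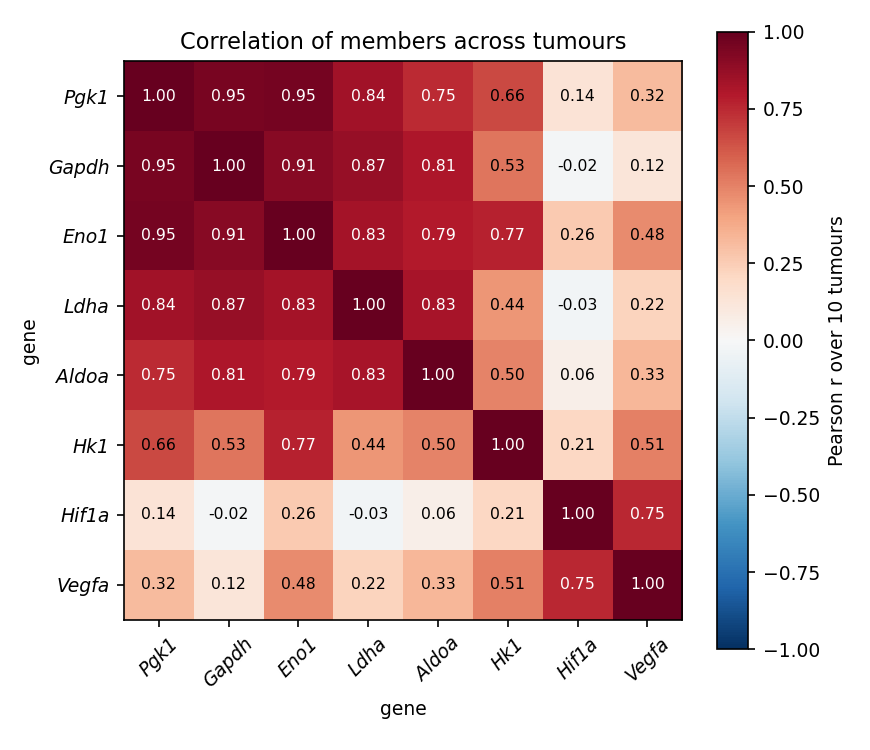
Pearson correlation over 10 tumours between each pair of the 8 tested genes, with colour from -1 (blue) to 1 (red) and the value in each cell. The 10 cells among Aldoa, Gapdh, Pgk1, Eno1 and Ldha hold r from 0.75 to 0.95, Hk1 with Eno1 holds 0.77 and Hif1a with Vegfa 0.75.

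Among 8258 named genes with a value in every tumour, Eno1 and Gapdh were the 2 most like Pgk1 across tumours by Pearson r, and Pgk1 was the second most like Eno1. For Gapdh, the 3 most alike were P4hb, a protein disulfide isomerase (r = 0.99), Pygb (0.97) and Crls1, the cardiolipin synthase (0.96), and Pgk1 came seventh. Crls1 was also the most like Eno1 (0.96) and Aldoa (0.87) and the third most like Pgk1 (0.94). Other enzymes ranked lower: Ldha and Aldoa were 89th and 320th among the genes like Pgk1. They were 72nd and 213th for Gapdh, and 57th and 111th for Eno1. Ldha was most like Cd302 (0.97), Urah and Ddit4 (both 0.94). For Hk1 the nearest were Vldlr (0.91), Tm7sf2 (0.88) and Cars1 (0.87). Hif1a was most like Smad7, Yipf4 and Nipsnap1 (all 0.96), and Vegfa like Zfp800 (0.94), Top3b (0.93) and Canx (0.92). Hif1a ranked 162nd among the genes like Vegfa, and Vegfa 466th among those like Hif1a. These are descriptions over n = 10 tumours that share arrays, given without a test.

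For 5 of the members a 2nd kept probe gave another reading of the same gene. The correlation between the 2 probes over tumours was 0.89 for Hif1a, 0.56 for Eno1, 0.55 for Gapdh, 0.55 for Vegfa and 0.39 for Hk1. In all 5 genes the 2 probes had a diet difference of the same sign. The dimmer Gapdh probe followed the number of probes above background on its array, with r = 0.94 (rho 0.92; permutation p adjusted over 26 relations, 0.0036 for r and 0.015 for rho; r = 0.92 without the 2 farthest arrays). For the brighter probe r was 0.42. These relations were examined after the values had been seen.

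**Figure D5:**
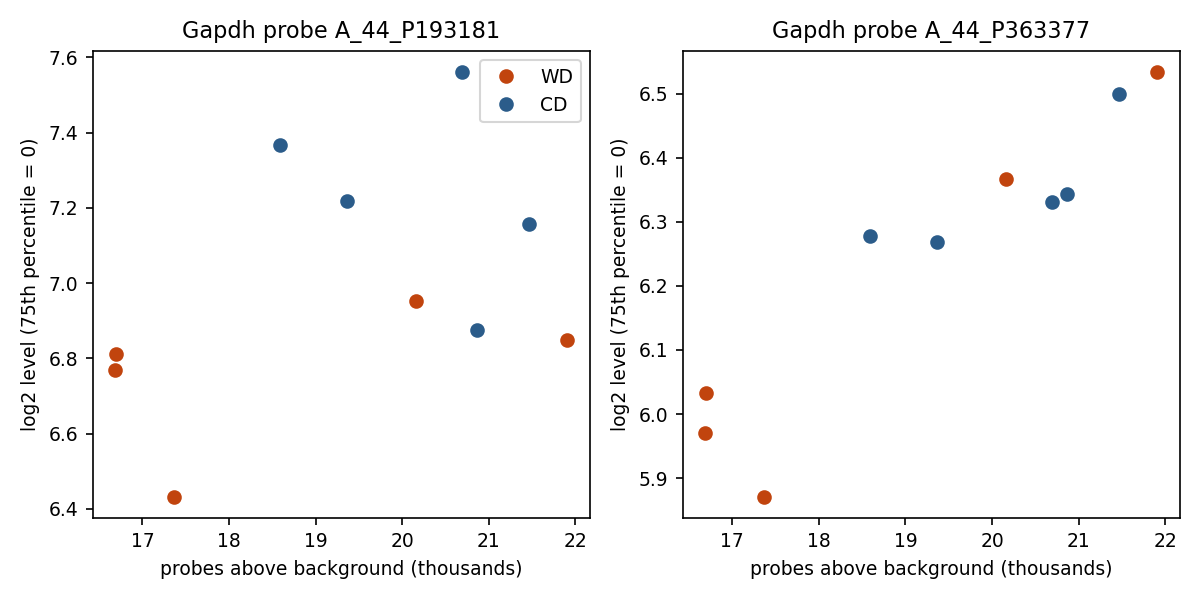
Level of the brighter (left) and the dimmer (right) Gapdh probe (log2, 75th percentile of the array = 0) against the number of probes above background on the array, for 5 WD (orange) and 5 CD (blue) tumours. The dimmer probe increases along the axis (r = 0.94), and the brighter probe scatters (r = 0.42).

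Array brightness and marker levels were set beside the members. The log2 75th percentile of the array, a measure of its brightness, correlated with Ldha at r = 0.60, Gapdh at 0.52, Pgk1 at 0.48 and Hif1a at -0.52; of 96 relations of members with brightness or marker levels, none had an adjusted permutation p under 0.05 (for Pgk1 with brightness, rho 0.53, adjusted permutation p = 0.595 for r and 0.683 for rho, r = 0.22 without the 2 farthest tumours). With brightness as a covariate the Pgk1 difference was -0.73, that of Gapdh -0.44 and that of Ldha -0.27 (limma, unadjusted p = 0.045, 0.066 and 0.303 over all genes, 10 tumours), while Hif1a and Vegfa turned to -0.10 and -0.21. With normexp background correction Pgk1 differed by -0.66 and Gapdh by -0.42 (limma, unadjusted p = 0.133 and 0.271).

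The luminal epithelial level, the mean of 7 markers, lay between 4.61 and 5.11 in WD and between 4.98 and 5.68 in CD tumours, and 6 of the 7 markers had a lower mean in WD tumours. It had r = 0.67 with Pgk1 (rho 0.68, adjusted permutation p = 0.590, 0.70 without the 2 farthest tumours) and r = 0.63 with Gapdh. The T cell level lay between 0.95 and 2.63 in WD and between 0.29 and 1.24 in CD tumours, and all 4 tested markers had a higher mean in WD tumours. All 7 fibroblast markers had a higher mean in WD tumours, with levels of 1.77 to 3.67 in WD and 1.24 to 3.03 in CD tumours, and CD4, the tumour with the highest enzyme levels, had the lowest fibroblast level. All 8 tested proliferation markers had a lower mean in WD tumours, and the level of that list had r = 0.03 with Pgk1. The highest correlations in size were those of Hif1a with the basal level (r = -0.79, rho -0.75, adjusted permutation p = 0.338, r = -0.60 without the 2 farthest tumours), Hk1 with the neutrophil level (r = -0.73, -0.32 without them) and Pgk1 with the skeletal muscle level (r = -0.72, -0.59 without them), and none passed. The neutrophil level was the mean of S100a8 and S100a9 alone, while Csf3r, Cxcr2 and Ngp were above background on no array. The skeletal muscle level was that of Myh2, Mb and Actn3, with diet means from -0.81 to -2.40. Of 7 muscle markers, 0 were above background on all 10 arrays, so these 2 levels are weak measures of a cell type. The part of cell make-up or brightness in the Pgk1 and Gapdh values was not tested.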

How the data were processed

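Total RNA of 10 tumours (200 ng each) was labelled with Cy3 and hybridised to 1-colour Agilent whole rat genome arrays, 1 array per tumour. The file headers name Agilent Feature Extraction 11.5.1.1 as the reader of the scans, but version 15.5 stands in the submitters' processing notes. For each spot, the deposited files give intensity values as processed signals (background-subtracted, not scaled between arrays) and as median signals of spot and background. The same deposited files mark spots well above background, outlier or saturated in columns of other values, 0 or 1. The deposited series matrix holds log2 values. Their rank order in each array was that of its own median signals (Spearman correlation 1), with column medians of 6.97 to 6.98, so scale and centring were inferred, and its tool is not given in those sources.

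Levels are log2 processed signals less the 75th percentile over an array's measuring spots. Outlier spots were left out, and spots of a probe were averaged. Probes well above background on at least 5 of 10 arrays were kept (19745 of 41012). Symbols came from RefSeq (GRCr8) through the transcript identifier of the probe, which named 17502 probes (42.7%). Array coordinates are on rn4, so RefSeq positions are given for promoters only. For each gene the kept probe of highest mean level was used.

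The diet comparison used limma 3.58.1 under R 4.3.3 (lmFit, eBayes, Benjamini-Hochberg over 16779 genes, threshold 0.05), with files read in R. Single values were compared by exact two-sided permutation and correlations by 100000 permutations, in Python 3.11.15 with SciPy 1.17.1. The procedure was tested on simulated data. The planned normexp alternative (offset 50) used median in place of mean spot signals. Members, lists and tests were chosen with earlier results of these data known. Named were the members with every probe, 20 genes fixed by name (of which Eno2, Egln1 and Arnt gave no tested value), up to 2 genes of smallest p per pathway list, and the 3 genes most like each member. Hk3, Actb, B2m, Tbp and the muscle markers were named after their values were seen. Alternatives were the background correction, normalisation, source of values, probe filter and rule, slide, brightness, replicate number and leaving out each tumour.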

Additional observations from a re-analysis of the deposited data

Results flagged for a closer look

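In WD4 the used Hk1 probe read 3.45, while the other 4 WD tumours lay between 3.80 and 3.84, so this tumour stood far from its group. WD4 also had the highest Hk2 value of the 10 tumours, by a probe that was above background on its array, and the highest Hif1a level, 3.99. Egln2 read 0.83 in CD3, while the other 4 CD tumours lay between 1.74 and 2.04. Both values were picked out by the gap to the nearest tumour as a share of the group's range. Chance alone picks out about 1 in 20 groups, and 2 of 100 groups were picked out here.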

How the results depend on the processing

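No gene passed an adjusted p of 0.05 with limma under the main setting, where 2603 genes had an unadjusted p under 0.05 (1308 higher and 1295 lower in WD). That count was 499 with normexp (353 higher, 146 lower), 7055 without the filter on dim probes (5997 higher, 1058 lower) and 964 with array brightness as a covariate (465 higher, 499 lower). Members at an unadjusted p under 0.05 numbered 2, against 0 with normexp, 4 with the series matrix, 4 when a probe had to be above background on all 10 arrays, 1 with brightness as a covariate, and 2 to 4 when 1 tumour was left out. The pairs of members past the threshold numbered 12, against 28 with normexp, 6 with the series matrix and 3 to 13 when 1 tumour was left out. The Aldoa minus Aldoc difference turned to -0.0200 with normexp and -0.0617 with the series matrix, and lay between -0.27 and 0.28 when 1 tumour was left out. The cause was not tested.

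Some differences changed sign. Gpi was 0.0544 with normexp, 0.0252 with quantile normalisation, 6.4e-05 with the series matrix, 0.0393 with slide as a block and 0.0024 with brightness. With brightness as a covariate Hif1a was -0.10, Vegfa -0.21, Aldoc 0.37, Egln2 0.0155 and G6pc3 0.14, against -0.27, -0.47 and -0.52 without it for the last 3. Pgam1 was 0.0150 with slide as a block. Within single slides Hk1 was 0.30, Aldoa 0.27 and Vegfa -0.61. With 1 tumour left out, the ranges were -0.0550 to 0.0357 for Gpi, -0.38 to 0.0583 for Flt1, -0.0293 to 0.45 for Slc16a3, -0.51 to 0.0408 for Aldoc, -0.36 to 0.0550 for Car9, -0.0049 to 0.32 for Hif1a and -0.12 to 0.36 for Vegfa.

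Tumours of the 2 diets share replicate numbers, and the main setting does not pair them. The deviations of same-numbered tumours from their diet means had r from -0.02 to 0.16 over 5 pairs. Differently numbered tumours were not set beside these values, so they cannot exclude a pairing. With the number as a replicate block, 4 members had an unadjusted p under 0.05. Signal over background limits Hk2, Slc2a8 and Hk3.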

Other observations

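The dimmer probes of Eno1 and Hk1 followed each other across the 10 tumours with r = 0.95 (rho 0.92, permutation p adjusted over 78 probe pairs 0.0016 for r), although each followed the brighter probe of its own gene with r = 0.56 and 0.39. With the number of probes above background on the array they had r = 0.73 and 0.71 (adjusted permutation p = 0.149 for each). With the dimmer Gapdh probe they had r = 0.74 and 0.72. The part of the array in these relations was not tested. The dimmer Hk1 probe read 0.85, -0.48, 0.29, -0.91 and 0.43 in WD tumours, against 0.23, 0.74, -0.29, 1.14 and 0.46 in CD tumours. The pair of dimmer Eno1 and Hk1 probes was looked at after its values had been seen.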
